A study of Mus musculus with 9 samples.

Results

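The neuronal cytoskeleton genes described here are 10 genes that build or regulate the microtubules of young neurons. They are the tubulin genes Tubb3, Tubb2a, Tubb2b and Tuba1a, the microtubule-associated protein genes Dcx, Map2, Mapt and Map1b, the tubulin-sequestering protein gene Stmn1 and the growth cone protein gene Dpysl3. They were found by symbol among the 48526 genes of the count table, and all 10 were among the 18858 genes that passed the expression filter. The libraries came from neural stem cells (NSCs) of the subependymal zone (SEZ) of adult C57BL/6 mice (C57BL/6J in the methods), expanded in culture with EGF and FGF. Differentiation was induced by seeding the cells on an adhesive substrate (Matrigel) without EGF, with FGF still present. The methods add that cells fixed at early times were first seeded with EGF and FGF and treated afterwards. Whether this held for the sequenced cells is not stated, so seeding may or may not be part of the contrast with 0 h. Cells were compared before induction (0 h) and 1 h or 6 h after it, with 3 libraries per time point and 9 in all. Strain and source were shared by all groups, and the mice were 2 to 4 months old according to the methods. Cultures of this kind are enriched in NSCs and progenitors, and markers of other cells of the niche are given below.

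Microtubules are hollow polymers of α- and β-tubulin dimers. The genome holds several genes for each subunit, and neurons favour some of these isotypes, with βIII-tubulin from Tubb3 used as a label of newly formed neurons. Microtubule-associated proteins such as doublecortin (Dcx), MAP2, tau (Mapt) and MAP1B bind and stabilise the polymer, stathmin (Stmn1) holds free dimers and promotes disassembly, and the collapsin response mediator Dpysl3 acts in growth cones. Tubulin mRNA is also under autoregulation, in which TTC5 recognises the first residues of nascent tubulin when free dimers are in excess and the mRNA is then degraded.

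The start of the coding sequence carries this autoregulation signal, so it is printed for the 4 tubulin members and for Tubb5 and Tuba1b, which are abundant general isotypes. Each run gives the first 30 coding bases of the GENCODE M21 transcript on the strand of the gene, with the 12 bases of the first 4 codons in capitals. The 12 capital bases did not differ between Tuba1a and Tuba1b, and they differed at 1 to 3 bases between the β-tubulin genes. All of these differences keep the encoded residue, so the β-tubulin genes printed encode the same first 4 residues.
Tubb3, chr8:123411606-123411635, plus strand, exon 1: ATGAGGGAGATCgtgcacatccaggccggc
Tubb2a, chr13:34077900-34077929, minus strand, exon 1: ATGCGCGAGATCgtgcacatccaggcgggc
Tubb2b, chr13:34130204-34130233, minus strand, exon 1: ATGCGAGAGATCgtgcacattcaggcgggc
Tubb5, chr17:35838024-35838053, minus strand, exon 1: ATGAGGGAAATCgtgcacatccaggccgga
Tuba1a, within chr15:98951665-98953453, minus strand, across exons 1 and 2: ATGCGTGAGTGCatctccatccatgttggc
Tuba1b, within chr15:98933169-98934335, minus strand, across exons 1 and 2: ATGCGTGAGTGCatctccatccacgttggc

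The end of the coding sequence encodes the acidic tail in which β-tubulin isotypes can differ, and it also shows which genes can be told apart by their reads. The last 90 coding bases, including the stop codon, lie in exon 4 of each gene. Capitals mark the bases that differ between Tubb2a and Tubb2b, and there were 3 of them in this stretch. All 3 keep the encoded residue, so both genes encode the same tail. The coding sequences of these neighbours on chromosome 13 have 1338 bases each, are 96.5% identical and share an identical run of 551 bases.
Tubb3, chr8:123421593-123421682, plus strand: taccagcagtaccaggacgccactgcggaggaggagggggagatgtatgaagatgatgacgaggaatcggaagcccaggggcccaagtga
Tubb2a, chr13:34074468-34074557, minus strand: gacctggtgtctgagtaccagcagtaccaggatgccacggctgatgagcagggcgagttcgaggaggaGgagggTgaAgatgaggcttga
Tubb2b, chr13:34127471-34127560, minus strand: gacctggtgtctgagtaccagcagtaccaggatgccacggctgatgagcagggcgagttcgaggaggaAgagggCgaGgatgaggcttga
Tubb5, chr17:35834982-35835071, minus strand: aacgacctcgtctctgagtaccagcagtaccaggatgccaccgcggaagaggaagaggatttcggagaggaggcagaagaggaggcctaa

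Of all stretches of the length of a read, 61.2% in the Tuba1a transcripts, 31.5% in Tubb2a, 21.8% in Tubb2b and 10.4% in Stmn1 also occurred in another gene, and none did in the other 6 members. For Tubb2a these genes were Tubb2b and the pseudogene Tubb2a-ps2, for Stmn1 Gm11223, and for Tuba1a there were 10, among them Tuba1c. Gm49450 shares 26.2% of the exonic bases of Tuba1a on the same strand. How the counting treated reads of this kind is not given in the sources used here, so the levels of these 4 genes are less certain than the others. Map2 shares 0.754% of its exonic bases with Gm10558 on the opposite strand, and the strand setting of the counting is not given in the sources used here either.

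The total count per library lay between 65871454 and 105592597, and the TMM factors between 0.972 and 1.02. Libraries of the same replicate number deviated together from the mean of their time point, with r between 0.734 and 0.799 in 9 pairs, against -0.463 to -0.311 in 18 pairs with other numbers. The negative values follow from the positive ones, because deviations from the mean of a time point cancel out, and are not separate evidence. The replicate numbers therefore pair the samples, and each comparison is given without and with the number as a block. What libraries of the same number share, and whether they came from separate mice, is not given in the labels, so the p-values measure the spread between these samples, which may be technical. The library of 1 h replicate 3 stood apart by gene length, in that 2639 genes over 8000 exonic bases differed there by -0.18 on the log2 scale from 5096 genes under 2000 bases, against -0.0493 to 0.095 in the other 8 libraries. Markers of the labelled cells were present, with means at 0 h of 1985 CPM for Nes, 2104 CPM for Fabp7, 1073 CPM for Slc1a3 and 105 CPM for Sox2, but Gfap had 1.31 CPM.

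The levels of the 10 genes spanned a wide range. Expression is given as CPM, the count scaled to the library total after TMM, and levels are compared between genes only as CPM per kb of exonic sequence, which counts the exons of all annotated isoforms. Averaged over the 9 libraries, Tuba1a was highest with 1350 CPM per kb, followed by Tubb2b with 596 and Tubb2a with 310 CPM per kb, with no overlap between neighbours in this order. Stmn1 (99.9), Map2 (68.0) and Dpysl3 (32.0 CPM per kb) followed, and the ranges of Stmn1 and Map2 overlapped, as did those of Map2 and Dpysl3. Map1b had 9.70, Mapt 5.07 and Tubb3 2.77 CPM per kb, with overlapping ranges from each to the next. Dcx was lowest with 0.0721 CPM per kb (0.0451 to 0.140 over the 9 libraries). In undifferentiated NSCs at 0 h alone, the means ran from 0.0850 CPM per kb for Dcx to 1116 CPM per kb for Tuba1a. All 10 genes were chosen as neuronal, so this order ranks them only against each other. In bulk RNA, fewer cells of a type and less RNA per cell cannot be told apart.

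After 6 h, Tubb3, Tuba1a, Map1b, Tubb2b, Dpysl3, Tubb2a, Stmn1 and Mapt were higher than at 0 h when replicates were paired, whereas Map2 and Dcx did not pass the test. The rise was about 2-fold for Tubb3 (log2 fold change 1.06 ± 0.09, standard error) and smaller for the other 7, from 0.21 to 0.57. Without the block, only Tuba1a passed the threshold of an adjusted p of 0.05 (edgeR, Benjamini-Hochberg), 1 of 10 members against 2.42% of all tested genes. With the block, 8 of 10 members passed, all higher, against 34.9% of all tested genes (17.4% higher and 17.5% lower). The median log2 fold change of the members was 0.35 (0.36 with the block), against -0.0031 over all tested genes.

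After 1 h, no member passed without the block (edgeR), against 0.0424% of all tested genes. DESeq2 without the block also called 0 members, against 0.525% of all tested genes. In edgeR without the block, 3 members had an unadjusted p under 0.05, against 3.9% of all tested genes. With the block, Tubb2a alone passed, 1 of 10 members against 3.51% of all tested genes. The member median was 0.06 (0.07 with the block), against 0.0012 over all tested genes.

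Between 1 h and 6 h, no member passed without the block (edgeR, 2.14% of all tested genes). In the same fit 2 of 10 had an unadjusted p under 0.05, against 17.7% of all tested genes, and DESeq2 without the block called 1, Tuba1a, against 8.95%. With the block, Tubb3, Tubb2b, Tuba1a, Map1b and Dpysl3 were higher, 5 of 10 members against 35.6% of all tested genes (18% higher and 17.5% lower). The member median was 0.18 in both fits. The comparisons of 1 h and of 6 h with 0 h share the same 0 h libraries, so their values are set side by side only.

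**Figure D1:**
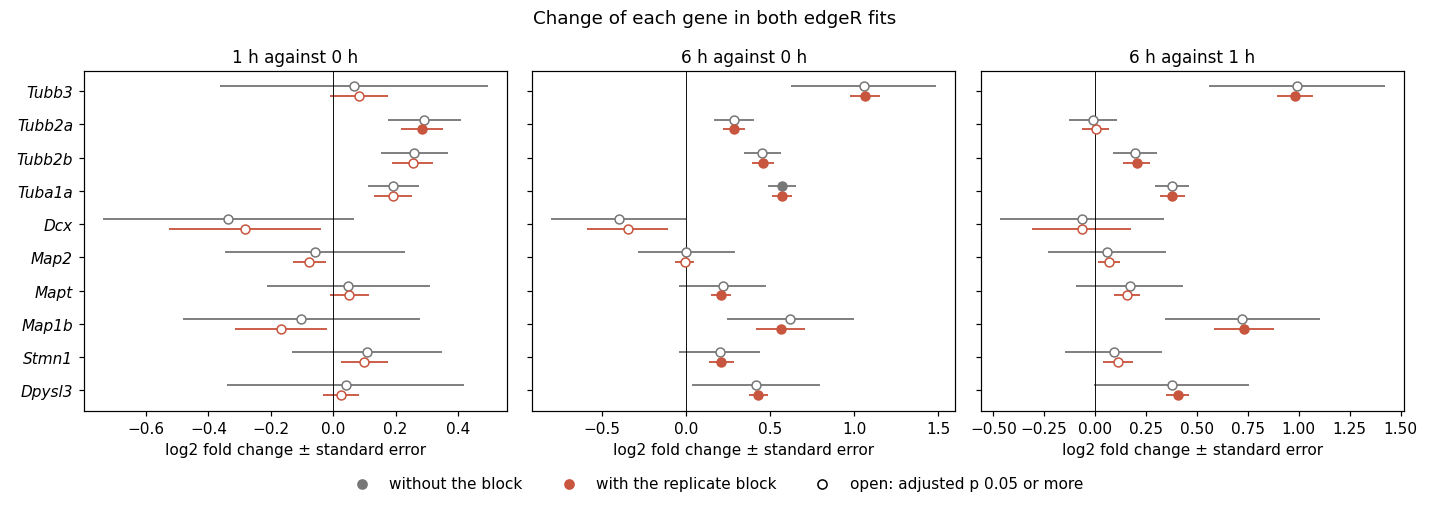
Log2 fold change of each of the 10 genes (points) with its standard error (lines) in the 3 comparisons, without the block in grey and with the replicate block in red. Filled points have an adjusted p under 0.05. The estimates of both fits lie close together and the error bars are shorter with the block, and at 6 h against 0 h the filled points number 1 without and 8 with it.

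Counting genes whose libraries did not overlap between time points needs no model. Between 0 h and 1 h this held for Tubb2a, Tubb2b and Tuba1a, 3 of 10 members against 8.22% of all tested genes. Between 0 h and 6 h it held for the same 3 genes, against 24.9% of all tested genes. Between 1 h and 6 h it held for Tuba1a, 1 of 10 members against 22.2%.

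Among the tubulins, Tubb3 (ENSMUSG00000062380, chromosome 8, 123411424 to 123422015, GRCm38) encodes βIII-tubulin. Its level was 4.34, 4.90 and 2.03 CPM at 0 h in replicates 1, 2 and 3, 4.36, 5.03 and 2.42 CPM at 1 h, and 8.97, 10.1 and 4.43 CPM at 6 h, from 142 to 918 counts per library. Replicate 3 was lowest at every time point, so that its 6 h value fell within the range of the 0 h group. Within each number, however, the 6 h level was 2.07, 2.06 and 2.18 times that at 0 h, a nearly constant ratio. The adjusted p was 0.243 without the block and 2.07e-06 with it (edgeR, Benjamini-Hochberg). At 1 h the corresponding ratios were 1.00, 1.02 and 1.19, and the adjusted p with the block was 0.689. Between 1 h and 6 h the log2 fold change was 0.98 ± 0.09 (adjusted p 4.62e-06 with the block and 0.279 without). The call of Tubb3 at 6 h with the block was present in all 9 fits that left out a library.

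Tuba1a (ENSMUSG00000072235, chromosome 15, 98949837 to 98953703), the principal α-tubulin gene of developing neurons, had 1948, 2090 and 2001 CPM at 0 h, 2128, 2282 and 2491 CPM at 1 h, and 3112, 2946 and 2903 CPM at 6 h. All libraries of a later time point were above all those of an earlier one. Tuba1a differed least of the members between replicate numbers, and its rise from 0 h to 6 h (0.57 ± 0.08, from means of 2013 ± 72.0 to 2987 ± 110 CPM, SD, n = 3) passed in both fits, with an adjusted p of 0.0186 without and 1.85e-05 with the block (edgeR, Benjamini-Hochberg). Without the block, leaving out any 1 of the 6 libraries at 0 h or 6 h took the adjusted p to between 0.0571 and 0.0974, while leaving out a 1 h library did not end the call. With the block the call was present in all 9 such fits. Between 1 h and 6 h the log2 fold change was 0.38 ± 0.08, with an adjusted p of 0.0596 without and 0.000446 with the block. For 1 h against 0 h it was 0.19 ± 0.06 with the block and did not pass (adjusted p 0.119), although DESeq2 with the block gave an adjusted p of 0.0341.

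Tubb2b (ENSMUSG00000045136, chromosome 13, 34126748 to 34130466), a β-tubulin gene of neurons and progenitors, had 1088, 1140 and 1223 CPM at 0 h, 1236, 1286 and 1610 CPM at 1 h, and 1591, 1543 and 1593 CPM at 6 h. The 6 h libraries lay close together, and 1 h replicate 3 was already at their level. The rise from 0 h to 6 h was 0.46 ± 0.06 with the block (adjusted p 0.000156), and its adjusted p without the block was 0.071 (edgeR, Benjamini-Hochberg). It passed without the block in DESeq2 (0.00278), with a filter of at least 1 CPM on average (0.0432) and without 1 h replicate 3 (0.0251). At 1 h against 0 h the change was 0.25 ± 0.06, with an adjusted p of 0.0510 with the block, just above the threshold, and it passed without 1 h replicate 1 (0.0426) or 6 h replicate 3 (0.0229). With all libraries and the block it also passed in DESeq2 (0.00338), with RLE scaling (0.0451), without a filter (8.61e-06), with only the 6 libraries compared (0.0491) and after correction for GC and length trends (0.0496). Between 1 h and 6 h it was 0.20 ± 0.06 (adjusted p 0.0270 with the block), and this call was lost when replicate 1 or 2 was left out at 1 h (0.146 and 0.131) or at 6 h (0.170 and 0.0839).

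Tubb2a (ENSMUSG00000058672, chromosome 13, 34074274 to 34078007), its neighbour and near copy, had 406, 441 and 458 CPM at 0 h, 458, 506 and 633 CPM at 1 h, and 525, 513 and 549 CPM at 6 h. In contrast to Tubb3 and Tuba1a, its estimated difference between 1 h and 6 h was close to 0 (0.0021 ± 0.07 with the block, adjusted p 0.985). At 1 h against 0 h it was the member with a call, with a log2 fold change of 0.28 ± 0.07 and an adjusted p of 0.0357 with the block (edgeR, Benjamini-Hochberg), and 1.00 without it. The call was lost without any 1 of the 0 h libraries (0.105 to 0.257), without 1 h replicate 2 (0.0670), without 6 h replicate 2 (0.0509) or without 1 h replicate 3, where the log2 fold change fell to 0.18 (adjusted p 0.0580). After correction for GC and length trends the change was 0.24 (adjusted p 0.0254 with the block). At 6 h against 0 h Tubb2a was higher by 0.29 ± 0.07 (adjusted p 0.00505 with the block and 0.254 without), and all 9 fits that left out a library called it.

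**Figure D2:**
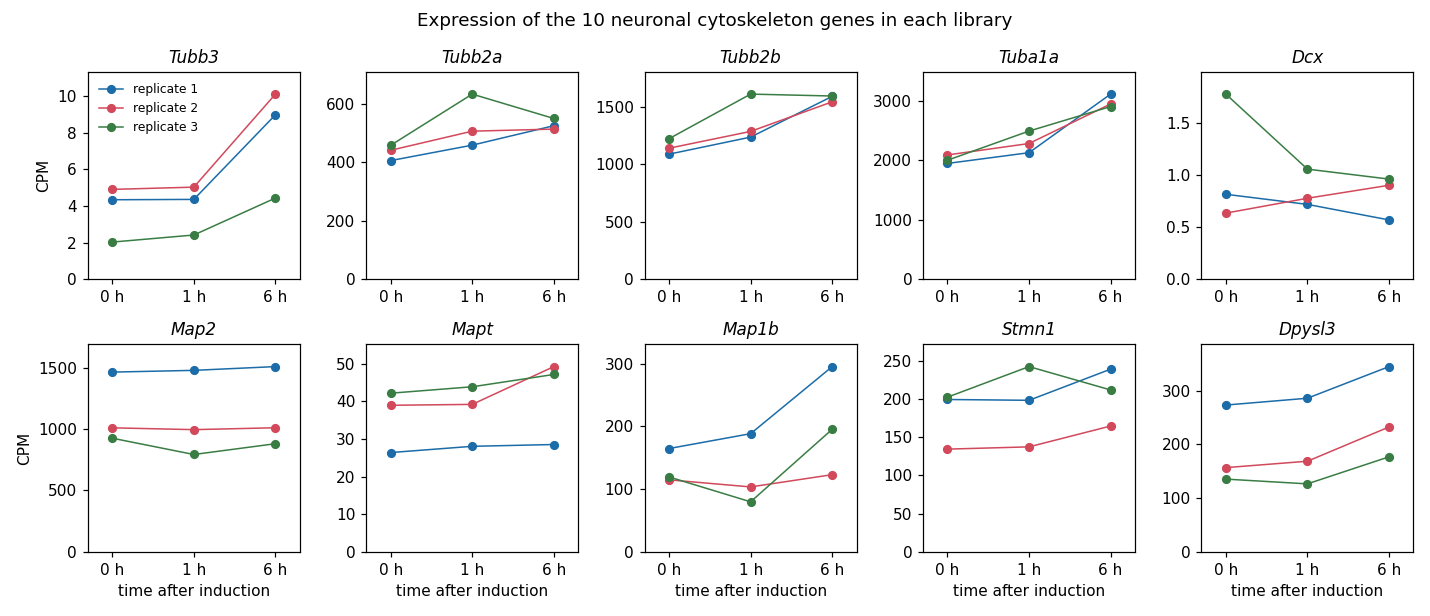
CPM of each gene (vertical axis, from 0, with its own scale per panel) in the 9 libraries by time point, with lines joining the libraries of the same replicate number. The tubulin panels rise from 0 h to 6 h in all 3 replicates, Map2 runs flat at 3 separate levels, and Dcx has its highest value, 1.78 CPM, in 0 h replicate 3.

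Among the microtubule-associated proteins, Dcx (ENSMUSG00000031285, chromosome X, 143855842 to 143933311), which encodes the neuroblast protein doublecortin, was the least expressed member. It had 0.815, 0.635 and 1.78 CPM at 0 h, 0.719, 0.777 and 1.06 CPM at 1 h, and 0.570, 0.902 and 0.961 CPM at 6 h, from 42 to 124 counts per library. The groups overlapped, and only replicate 2 had a higher level at 6 h than at 0 h. The log2 fold change at 6 h was -0.35 ± 0.24 with the block, with an adjusted p of 0.291 (edgeR, Benjamini-Hochberg). No change of Dcx was detected, and without 0 h replicate 3, the highest library, the unblocked value turned to 0.16. The direction of the Dcx estimate was thus opposite to that of Tubb3, but neither its sign nor its size was fixed by these libraries.

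Map2 (ENSMUSG00000015222, chromosome 1, 66175273 to 66442583), whose protein stabilises dendritic microtubules in mature neurons, was already expressed before differentiation. Its mean at 0 h was 68.9 CPM per kb. It had 1463, 1010 and 925 CPM at 0 h, 1477, 995 and 793 CPM at 1 h, and 1508, 1010 and 880 CPM at 6 h. Each replicate number kept its own level over time, and the 6 h level over that at 0 h of the same number gave ratios of 1.03, 1.00 and 0.952. The log2 fold change at 6 h was -0.0099 ± 0.05 with the block (adjusted p 0.910), and its sign flipped between fits (0.0003 without the block). The change at 1 h was -0.08 ± 0.05 (adjusted p 0.489), where replicate 3, the library in which long genes were low, had a ratio of 0.857. After correction for GC and length trends it was -0.02 (adjusted p 0.887 with the block).

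Mapt (ENSMUSG00000018411, chromosome 11, 104231390 to 104332090), the tau gene, had 26.4, 38.9 and 42.1 CPM at 0 h, 28.04, 39.2 and 43.9 CPM at 1 h, and 28.5, 49.2 and 47.1 CPM at 6 h. Replicate 1 was below the others throughout. The rise at 6 h was small, 0.21 ± 0.06 with the block (adjusted p 0.0198, edgeR with Benjamini-Hochberg) and was not called without it (0.760). It was lost without any 1 of the 0 h libraries or without 6 h replicate 2 (up to 0.128), where the value was 0.13. From 1 h to 6 h the change was 0.16 ± 0.06 (adjusted p 0.0659 with the block, and 0.0427 without 6 h replicate 1).

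Map1b (ENSMUSG00000052727, chromosome 13, 99421446 to 99516540), which encodes a protein of extending axons, had 165, 115 and 119 CPM at 0 h, 188, 103 and 79.8 CPM at 1 h, and 295, 123 and 195 CPM at 6 h. Replicates 1 and 3 were 1.79 and 1.64 times higher at 6 h than at 0 h, whereas replicate 2 was 1.07 times higher. The change was 0.56 ± 0.15 with the block (adjusted p 0.00960, edgeR with Benjamini-Hochberg) and 0.62 ± 0.38 without it (0.461). The call was lost in DESeq2 with the block (0.0763) and when replicate 1 was left out at 0 h (0.0602) or at 6 h (0.0537), or replicate 3 at 6 h (0.0537). Map1b also rose from 1 h to 6 h, by 0.73 ± 0.15 (adjusted p 0.00208 with the block and 0.379 without), and this was called in all 9 fits that left out a library. Its lowest value, in 1 h replicate 3, is in the library in which long genes were low, and Map1b has 15846 exonic bases. After correction for GC and length trends, its rise from 1 h to 6 h was 0.71 (adjusted p 0.000537 with the block).

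Stmn1 (ENSMUSG00000028832, chromosome 4, 134468320 to 134473843), encoding stathmin, which is common in dividing progenitors as well as in neuroblasts, had 199, 134 and 202 CPM at 0 h, 198, 137 and 242 CPM at 1 h, and 239, 164 and 212 CPM at 6 h. Replicate 2 was lowest at each time point. The change at 6 h was 0.21 ± 0.07 with the block (adjusted p 0.0441, edgeR with Benjamini-Hochberg) and 0.20 ± 0.24 without it (0.760). This call was the weakest of the 8, and it was lost after correction for GC and length trends (0.0679), without any 1 of the 0 h libraries, and without 6 h replicate 1 or 2 (up to 0.223). The value was 0.32 without 6 h replicate 3 and 0.16 without 6 h replicate 1 or 2. The changes at 1 h against 0 h (0.10 ± 0.07) and at 6 h against 1 h (0.11 ± 0.07) did not pass with the block, but the latter did without 1 h replicate 3 (0.23, adjusted p 0.00376) or 6 h replicate 3 (0.22, 0.0188).

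Dpysl3 (ENSMUSG00000024501, chromosome 18, 43320984 to 43438286), a member of the collapsin response mediator family, had 273, 157 and 136 CPM at 0 h, 286, 169 and 127 CPM at 1 h, and 345, 233 and 177 CPM at 6 h. Replicate 1 was highest and replicate 3 lowest at each time point. From 0 h to 6 h each number rose, by 1.26, 1.48 and 1.31 times, with a log2 fold change of 0.43 ± 0.06 and an adjusted p of 9.38e-05 with the block, against 0.659 without it (edgeR, Benjamini-Hochberg). Dpysl3 was also higher at 6 h than at 1 h (0.40 ± 0.06, adjusted p 0.000152 with the block), while 1 h and 0 h differed by 0.02 ± 0.06 (0.860). All 9 fits that left out a library called Dpysl3 at 6 h against 0 h and against 1 h.

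The members differed in how much of their variation went with the replicate number. On log2 CPM (pseudocount 0.5), time accounted for 93.2% of the variation of Tuba1a over the 9 libraries and the replicate number for 0.92%. For Tubb2b these shares were 75.7% and 14.4%, and for Tubb2a 54.3% and 29.3%. The reverse held for Map2, with 1.06% for time and 97.3% for the replicate number, and for Mapt (89.9% for the number), Stmn1 (82.7%) and Dpysl3 (82.1%). Tubb3 lay between them, with 47.9% for time and 51.7% for the number, and a remainder of 0.45%. The medians over all tested genes were 26.9% for time and 49.1% for the number. The number with the highest mean was not the same for all members. Replicate 1 was highest for Map2, Map1b and Dpysl3, replicate 2 for Tubb3, and replicate 3 for Dcx, Mapt, Stmn1 and the 3 other tubulins, and the highest number exceeded the lowest by 1.03 times in Tuba1a and 2.25 times in Tubb3.

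**Figure D3:**
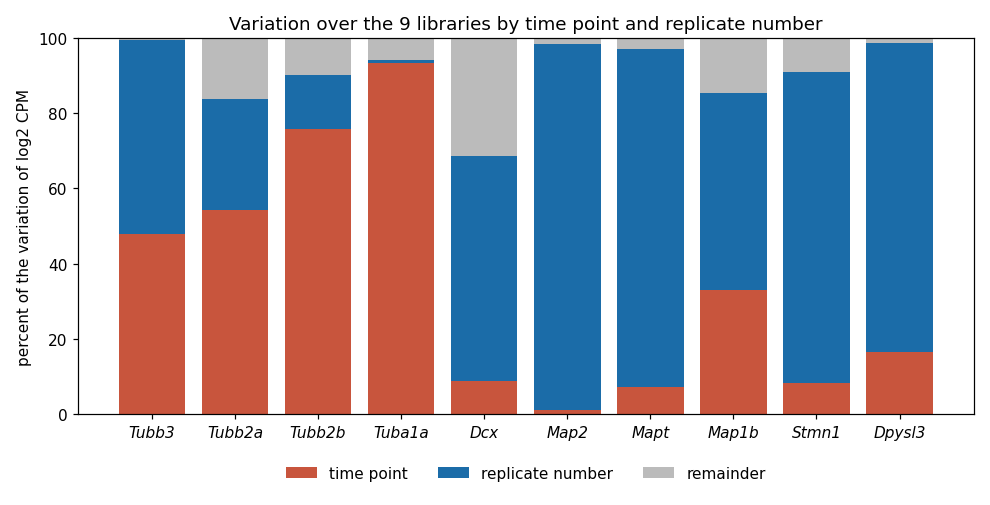
Percent of the variation of log2 CPM over the 9 libraries (stacked bars, to 100) that goes with time point, with replicate number and with neither, for each gene. Time takes 93.2% for Tuba1a and 1.06% for Map2, where the replicate number takes 97.3%.

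The composition of the tubulin pool was followed as the share of CPM per kb within each family. Tubb3, Tubb2a and Tubb2b together held 50.3%, 59.3% and 53.1% of the 7 β-tubulin genes examined at 0 h, 53.2%, 60.7% and 56.8% at 1 h, and 57.6%, 64.6% and 60.4% at 6 h. The share was higher in every number at each later time, with means of 54.2 ± 4.58%, 56.9 ± 3.77% and 60.9 ± 3.52% (SD, n = 3), but the groups overlapped. The difference of 6.64 percentage points between 6 h and 0 h had p = 0.2 in an exact two-sided permutation test, in which 3 against 3 libraries cannot go below 0.1. The differences at 1 h against 0 h (2.68 points, p = 0.4) and at 6 h against 1 h (3.96 points, p = 0.3, exact permutation tests) were also within the spread between unpaired libraries. Within replicates 1, 2 and 3, the share at 6 h exceeded that at 0 h by 7.31, 5.34 and 7.26 points and that at 1 h by 4.42, 3.88 and 3.58 points. Pairing by number gave p = 0.25 in an exact sign-flip test of each comparison, the smallest that 3 pairs allow, so a paired test of the share could not reach the threshold.

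Tubb2b carried most of this difference, with 35.1 ± 2.71% of β-tubulin at 0 h and 41.0 ± 2.35% at 6 h (SD, n = 3; no overlap, exact permutation p = 0.1, the smallest possible). Tubb2a stayed between 17.4% and 21.8% in all libraries. Tubb3, despite its 2-fold rise, was 0.144 ± 0.0668% of β-tubulin at 0 h and 0.253 ± 0.107% at 6 h. Without Tubb2a and Tubb2b, whose reads can be exchanged, the share left to Tubb3 was higher by 0.332 points at 6 h and lower by 0.0056 at 1 h (-0.0056). Tubb5, the widely expressed isotype, held 27.6 ± 2.79% at 0 h and 23.3 ± 2.15% at 6 h. Among 5 α-tubulin genes, Tuba1a held 71.8%, 81.1% and 69.4% at 0 h and 80.8%, 86.5% and 78.4% at 6 h, higher in each number with groups that overlapped (exact permutation p = 0.3). The α shares are also uncertain, since 58.0% of read-length stretches in Tuba1b and 43.1% in Tuba1c, like those of Tuba1a, occurred in another gene.

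**Figure D4:**
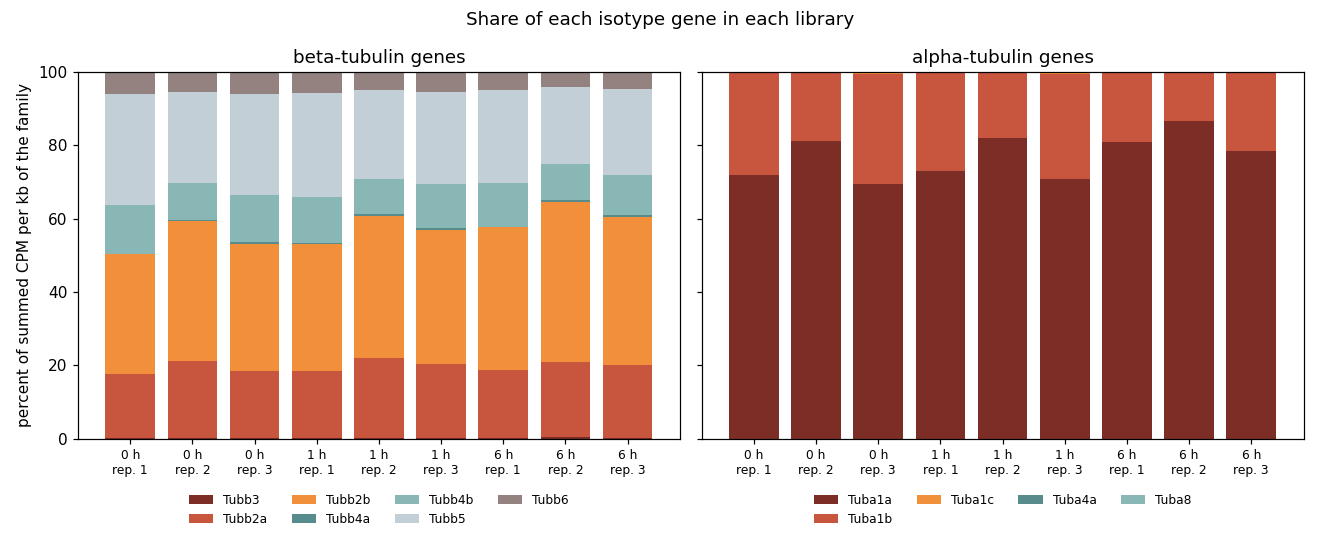
Stacked share of each isotype gene in the summed CPM per kb of the β-tubulin genes (left) and the α-tubulin genes (right) in each of the 9 libraries (vertical axis in percent, from 0 to 100). Tubb2b widens from 35.1% at 0 h to 41.0% at 6 h on average, and Tubb3 is barely visible at 0.144% and 0.253%.

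Other genes of the same machinery were examined in 6 lists, whose counts are to be read against the 34.9% of all tested genes called at 6 h against 0 h with the block and the 2.42% without it. For 6 h against 1 h these shares were 35.6% and 2.14%, and for 1 h against 0 h 3.51% and 0.0424%. Among 21 other neuronal microtubule-associated proteins, 3 were higher and none lower at 6 h against 0 h without the block, and 12 higher and 3 lower with it (71.4% of the list), with a median of 0.25. The 3 genes were Crmp1, which encodes a further collapsin response mediator and rose from 75.3 to 177 CPM (1.23 ± 0.17, adjusted p 0.0147, edgeR with Benjamini-Hochberg), Clip2, which encodes a plus-end linker (0.65 ± 0.13, 0.0454), and Dpysl2, the relative of Dpysl3 (0.57 ± 0.10, 0.0339). Map1a, encoding the MAP of mature neurons, rose by 0.55 ± 0.09 with the block only (adjusted p 0.000464, against 0.343 without). From 1 h to 6 h the same list had 3 higher without the block (Crmp1, Clip2 and Dpysl2) and 10 higher and 1 lower with it. Against 0 h, it had no call at 1 h in either fit of edgeR, as in all 6 lists but for Camsap1, described below.

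In the list of 12 other tubulins no gene passed without the block, and 3 were higher and 1 lower at 6 h against 0 h with it, 33.3% of the list and near the share of all tested genes. The minor isotypes Tuba4a (0.58 ± 0.17, adjusted p 0.0202) and Tubb4a (0.46 ± 0.06, 0.000108) and the δ-tubulin gene Tubd1 (0.38 ± 0.10, 0.00874) were higher, and the ε-tubulin gene Tube1 was lower (-0.32 ± 0.07, 0.00312; edgeR with Benjamini-Hochberg). The abundant general isotypes did not pass, with -0.01 ± 0.06 for Tubb5, -0.09 ± 0.06 for Tuba1b and 0.09 ± 0.08 for Tubb4b. The list median was 0.04 with the block, against 0.36 for the 10 members. From 1 h to 6 h, 2 were higher, Tubd1 and Tubb4a, and 3 lower, of which Tube1 (-0.37 ± 0.07) and Tubb6 (-0.22 ± 0.07) changed most.

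Of 19 general microtubule-associated proteins, which most cells use, none passed without the block, and 2 were higher and 4 lower at 6 h against 0 h with it (31.6% of the list, near the share of all tested genes, with a median of -0.05). The higher ones were Map7d1 (0.35 ± 0.05), which encodes a lattice-binding protein, and the end-binding protein gene Mapre2 (0.33 ± 0.05), and among the lower ones were the plus-end linker gene Clip1 (-0.39 ± 0.05) and the kinesin gene Kif5b (-0.27 ± 0.05). For 6 h against 1 h, 3 were higher and 4 lower. Camsap1, whose product binds microtubule minus ends, was the single gene of the 6 lists called at 1 h against 0 h, lower by 0.24 ± 0.05 with the block (-0.24, adjusted p 0.0225; 0.940 without the block). Its exons span 8368 bases, and long genes were low in 1 h replicate 3. The value was -0.18 without that library (adjusted p 0.0297) and -0.20 after correction for GC and length trends (0.0153), both with the block and run after the data were seen.

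Of 17 genes for tubulin folding, modification and autoregulation, none passed without the block, and 4 were higher and 1 lower at 6 h against 0 h with it, 29.4% of the list and not above the share of all tested genes. The tubulin detyrosinase gene Vash1 was lower (-0.41 ± 0.07, adjusted p 0.000425), while its relative Vash2 was higher (0.50 ± 0.07, 0.000204). The acetyltransferase gene Atat1 (0.20 ± 0.06) and the autoregulation factor gene Ttc5 (0.19 ± 0.07, adjusted p 0.0396) were higher by small amounts. For 6 h against 1 h, 3 were higher and 1 lower with the block, with Vash2 (0.62 ± 0.07) and the tyrosine ligase gene Ttl (0.25 ± 0.05) among the higher. The folding cofactor genes Tbca, Tbcb, Tbcd and Tbce did not pass, at between -0.0026 and 0.0423 with the block.

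Of 12 genes for neuronal intermediate filaments and growth cones, 11 could be tested, none passed without the block, and 1 was higher and 2 lower at 6 h against 0 h with it, 27.3% of those tested and not above the share of all tested genes. The neurofilament genes Nefl (-1.29 ± 0.21, from 2.22 to 0.948 CPM) and Nefm (-0.63 ± 0.09) were lower, and Dbn1, the drebrin gene, was higher (0.35 ± 0.05). Nefl had few counts in some libraries, with 13 to 406 per library at 0 h and 3 to 214 at 6 h. Without the block its change was -1.23 ± 1.63. Gap43, a growth cone gene with 514 CPM at 0 h, did not pass (-0.03 ± 0.06). Of the 4 non-neuronal intermediate filament genes, Nes (-0.43 ± 0.05), Vim (-0.28 ± 0.05) and Gfap (-0.63 ± 0.20) were lower at 6 h with the block (75% of the list), none without it. The counts at 6 h against 1 h were 1 higher and 2 lower in the first of these lists and 2 lower in the other.

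**Figure D5:**
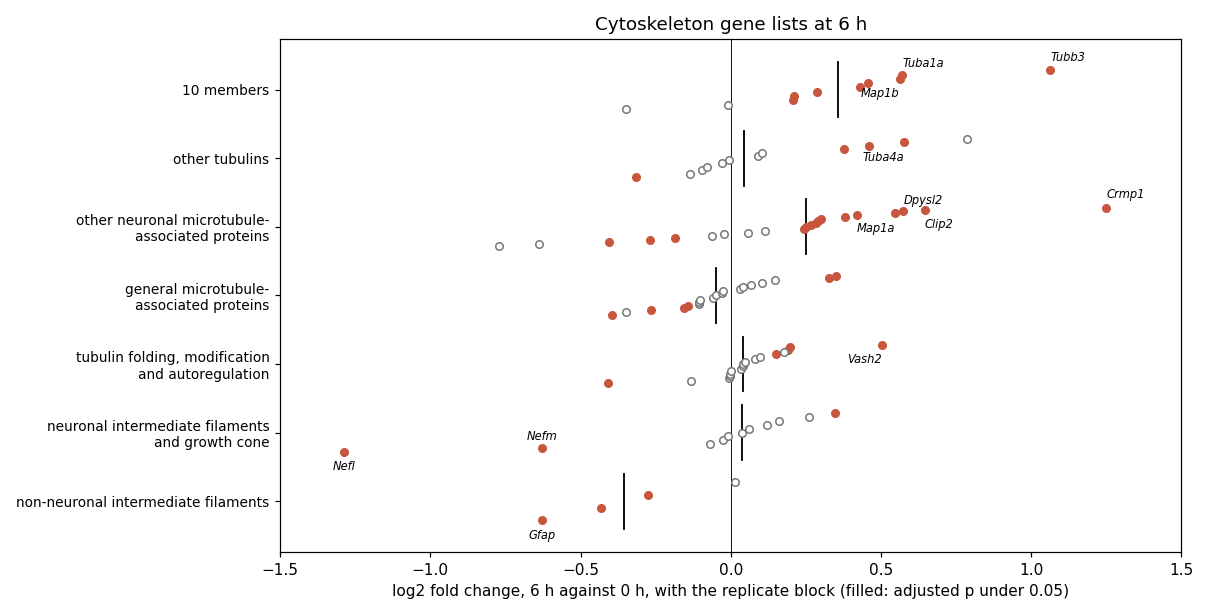
Log2 fold change at 6 h against 0 h with the replicate block (horizontal axis) of the 10 genes and of the tested genes of 6 further lists, 1 point per gene, filled where the adjusted p was under 0.05, with a vertical line at the median of each list. The members and the other neuronal microtubule-associated proteins have medians of 0.36 and 0.25, and the non-neuronal intermediate filament genes one of -0.35.

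Markers of cell types were read beside these values. Their counts at 6 h against 0 h are likewise to be read against 34.9% of all tested genes with the block and 2.42% without it. Of 13 neuroblast and neuron markers, 11 could be tested, and at 6 h against 0 h 1 was higher without the block (Elavl3, 0.87 ± 0.17, adjusted p 0.0405) and 5 with it, among them Syt1 (1.63 ± 0.11) and Rbfox3 (1.23 ± 0.16). The median of the 11 was 0.01 with the block, and 5 genes that did not pass had lower means at 6 h than at 0 h, namely Cd24a (272 and 253 CPM at 0 h and 6 h), Elavl4 (17.1 and 15.8), Igfbpl1 (2.79 and 2.67), Dlx2 (1.25 and 0.946) and Neurod1 (0.384 and 0.299 CPM). Their summed level ranged from 499 to 569 CPM at 0 h, 508 to 567 at 1 h and 554 to 596 at 6 h, while Dlx5 had no count in any library. Of 8 oligodendrocyte lineage markers, 5 were higher at 6 h with the block and 1 without it, Cspg4 (adjusted p 0.00672, and 1.41 ± 0.06 with the block), and the summed level went from 1695 to 2294 CPM at 0 h to 2169 to 2517 CPM at 6 h. Of 10 NSC and astrocyte markers, 4 were higher and 2 lower with the block, with summed levels of 5346 to 6756 CPM at 0 h and 5012 to 6362 CPM at 6 h. The 4 tested ependymal markers had 2 lower with the block, as had the 3 tested endothelial and pericyte markers, and their summed levels at 6 h were at most 61.2 and 3.81 CPM. The 5 microglia markers were too low to be tested, with summed levels of at most 0.307 CPM. The part of changes in cell make-up in the results above was not tested.

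The genes whose pattern over the 9 libraries was most like that of 3 members were sought among 13606 genes with a mean of at least 1 CPM, as a description, since these libraries share the replicate numbers. For Tubb3 they were Plcd1, Cspg5 and Emx2os (Pearson r of 0.993, 0.993 and 0.989), and after subtraction of the mean of each number Klhl26, Pde9a and Idi1 (0.998, 0.998 and 0.997). For Stmn1 they were Fzr1, Cenpm and Ppm1m (0.987, 0.984 and 0.982), and after subtraction Ddx39b, Map1lc3b and Reep5 (0.987, 0.985 and 0.984). For Dcx they were 1700003M07Rik, Scamp1 and Slc35b4 (0.957, 0.952 and 0.902), and after subtraction Gm11868, Fnbp1 and 1700003M07Rik (0.955, 0.953 and 0.948). The likeness was thus lower for Dcx, which had the fewest counts of the 3, and except for 1700003M07Rik the genes nearest to each member changed once the replicate numbers were removed.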

How the data were processed

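The mRNA of 9 NSC samples was sequenced by the authors in stranded paired-end mode. Per the labels and the methods, the authors used FastQC, STAR 2.5.3a on mm10 (GRCm38) with Ensembl genes, and DESeq2 1.22.1, and they deposited raw counts per gene, not normalised. How multi-mapping reads and strand were treated is not given in the sources used here. Library totals ranged from 65871454 to 105592597 counts, and Dcx had the fewest counts among the members.

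The counts were analysed with edgeR 4.0.16 (filterByExpr with minimum count 10 and total 15, TMM, glmQLFit and glmQLFTest) and DESeq2 1.42.0 in R 4.3.3 with limma 3.58.1 and with Python 3.11.15, pandas 2.3.3, numpy 2.4.6 and matplotlib 3.10.9. All 9 libraries entered each fit, with time as the factor and, in the paired fit, the replicate number as a block. P-values were adjusted by Benjamini-Hochberg over 18858 genes, with a threshold of 0.05. Standard errors were derived from the F statistic. Replicates were paired because libraries of the same number in the labels deviated together, with r of at least 0.734 in each pair. Counts of different libraries of a group differed beyond sampling noise (chi-square per degree of freedom of at least 78.7), so no library had been entered again within its time point. Libraries of different time points were not compared in this way.

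Symbols, positions and sequences were taken from GENCODE M21 (GRCm38), which gave 48144 of the 48526 genes a symbol. Stretches of the length of a read were searched for among all its transcripts. Isotype shares were compared with exact two-sided permutation tests. The fits were tested on simulated data. Alternatives were DESeq2, the block, RLE scaling, no scaling, no filter, a mean of at least 1 CPM, only the 6 libraries compared, correction for GC and length trends (splines with 4 degrees of freedom), and leaving out each library. Leaving out all libraries of a replicate number, and the length and library checks of Camsap1, were added after seeing the data.

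The members, the lists and the tests were chosen with earlier results of these data known. All members were named, and from each list up to 4 genes with the largest change past the threshold with the block and a mean of at least 1 CPM in each comparison, to which genes of interest that did not pass were added after their values were seen. No protein table was used.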

Additional observations from a re-analysis of the deposited data

How the results depend on the processing

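The number of called members moved most with the pairing. At 6 h against 0 h the number of members past the threshold was 1 without the block, 2 with DESeq2 and with a mean of at least 1 CPM, 8 with the replicate block, 7 with DESeq2 and the block and 7 after correction for GC and length trends with the block, and it was 0 to 2 when a library was left out. In this comparison the calls over all tested genes numbered 456 without the block and 1747 with DESeq2. They numbered 6581 with the block, 6104 with DESeq2 and the block and 6789 with the trends removed and the block. With a library left out and no block they numbered 41 to 522. Calls over all tested genes thus rose with the pairing as well. At 6 h against 1 h the number of members was 0 without the block and 1 with DESeq2 or a mean of at least 1 CPM. It was 5 with the block in edgeR, in DESeq2 and with the trends removed. In the same order the calls over all tested genes were 404, 1688, 563 (of 13606), 6710, 6263 and 7164. At 1 h against 0 h it was 0 without the block, 1 with the block, 3 with DESeq2 and the block and 2 with the trends removed with the block. The calls over all tested genes were here 8, 661, 937 and 701. Among fits with the block, 1 h against 0 h gave 3 with DESeq2 and with no filter, 2 with RLE scaling, only 6 libraries or the trends removed, and 0 to 2 with libraries left out, and 6 h against 0 h gave 5 to 8 with libraries left out. Over all tested genes, 1 h against 0 h gave 1369 of 31382 with no filter, 605 with RLE scaling and 572 with only 6 libraries. With libraries left out it gave 214 to 891 genes, and 6 h against 0 h gave 4415 to 8019. The pairing changed no direction of a called member, and the differences in β-tubulin share (2.68, 6.64 and 3.96 points) are the same with it by construction.

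Reversed signs occurred only in values that passed in neither fit, and the cause was not tested. Map2 at 6 h against 0 h was -0.000724 with DESeq2, -0.000734 with RLE scaling, -0.0099 with the block and -0.0112 with DESeq2 and the block, and among fits with the block 0.0023 without a filter and 0.0216 with the trends removed. Tubb2a at 6 h against 1 h was 0.0021 with the block, 0.0257 without scaling, 0.0010 without a filter and 0.0028 with at least 1 CPM, and among fits with the block -0.0054 with DESeq2 and with RLE scaling and -0.0387 with the trends removed. The β-tubulin share without Tubb2a and Tubb2b was -0.0056 at 1 h.

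With libraries left out and no block, the ranges at 1 h against 0 h were -0.23 to 0.32 for Tubb3, -0.60 to 0.23 for Dcx, -0.34 to 0.17 for Map2, -0.13 to 0.22 for Mapt, -0.53 to 0.13 for Map1b, -0.091 to 0.31 for Stmn1 and -0.35 to 0.41 for Dpysl3. At 6 h against 0 h they were -0.67 to 0.16 for Dcx and -0.26 to 0.23 for Map2, and at 6 h against 1 h -0.10 to 0.13 for Tubb2a, -0.21 to 0.13 for Dcx, -0.20 to 0.34 for Map2 and -0.10 to 0.29 for Stmn1. With the block they were, at 1 h against 0 h, -0.59 to 0.061 for Dcx, -0.32 to 0.053 for Map1b, -0.024 to 0.17 for Stmn1 and -0.029 to 0.074 for Dpysl3, at 6 h against 0 h -0.045 to 0.043 for Map2, and at 6 h against 1 h -0.070 to 0.10 for Tubb2a and -0.36 to 0.13 for Dcx. Of the calls with the block, those at 6 h against 0 h ranged from 0.38 to 0.78 for Map1b, 0.16 to 0.32 for Stmn1, 0.13 to 0.26 for Mapt and 0.21 to 0.35 for Tubb2a, and without the block the same comparison gave 0.12 to 0.78 for Dpysl3, 0.038 to 0.43 for Mapt and 0.031 to 0.34 for Stmn1. Dcx had the fewest counts, 42 to 124 per library, and counting error was not separated from the spread between libraries.

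Fits with the block that left out a replicate number at all time points were chosen after seeing the data. At 1 h against 0 h the number of members past the threshold was 0 without replicate 2 and without replicate 3, where 192 and 480 of all tested genes passed. Without replicate 3, the values turned to 0.044 for Dcx, 0.0012 for Map2 and 0.019 for Map1b at 1 h against 0 h, and to 0.028 for Dcx and 0.027 for Map2 at 6 h against 0 h. Dpysl3 at 1 h against 0 h was -0.013 without replicate 2, and at 6 h against 1 h Tubb2a was -0.094 and Dcx 0.032 without replicate 1. Over all genes, calls at 1 h against 0 h, 6 h against 0 h and 6 h against 1 h numbered 8, 456 and 404 without the block, 99, 1747 and 1688 with DESeq2 without the block, and 661, 6581 and 6710 with the block. Also without the block, they numbered 4, 105 and 21 with only the 6 libraries compared, and 10, 205 and 220 without a filter.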

Other observations

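The replicate numbers ranked the neuronal genes differently. Averaged over time, Tubb3 had 5.89, 6.68 and 2.96 CPM in replicates 1, 2 and 3, whereas Dcx had 0.701, 0.771 and 1.26 CPM, so the number lowest for Tubb3 was highest for Dcx. Map2 had 1483, 1005 and 866 CPM and Mapt 27.6, 42.4 and 44.4 CPM in the same order, again with opposite ranks. With 3 numbers these orders have no test.

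Map1b had the least even change of the called members between numbers, from 1.07 to 1.79 times at 6 h against 0 h, and Tubb3 the most even, from 2.06 to 2.18 times.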
